A study of Mus musculus with 10 samples.

Results

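Skeletal muscle contractile genes were followed in RNA-seq of inguinal white adipose tissue, a fat depot under the skin of the groin. The set holds 35 genes, listed by name, that encode the sarcomere of skeletal muscle, its calcium store and its quick energy supply. All 35 were found among the 40501 gene identifiers of the count table. The 10 libraries came from male mice on a chow diet. In 5 the mice carried no Cre (Control, replicates 2, 3, 5, 7 and 8). In the other 5 Cre was present and PexRAP was deleted (PexRAP-AKO, replicates 1, 2, 3, 5 and 6). PexRAP is the product of Dhrs7b, a reductase of the peroxisomal route to ether lipids. One label speaks of 8 weeks on chow and another of mice 8 weeks old, which leaves the age at dissection unsettled. The sources used here do not name the Cre driver or the strain, nor say whether equal replicate numbers link samples. The labels do not state that each library is 1 animal, so the p-values below measure the spread between these samples. The comparison asked how much muscle RNA each fat library held, whether that differed by genotype, and which kind of fibre its transcripts came from.

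Skeletal muscle shortens when myosin heads of the thick filament pull on actin of the thin filament within the sarcomere. Calcium released from the sarcoplasmic reticulum binds troponin C, and tropomyosin then shifts on the thin filament and lets the heads bind. Fibres differ in speed, and each kind uses its own isoforms: Myh4 marks the fastest, glycolytic IIB fibre, Myh1 the IIX fibre, Myh2 the fast oxidative IIA fibre and Myh7 the slow fibre. Adipocytes do not build sarcomeres. The groin depot lies against the muscles of the thigh and abdominal wall.

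The windows upstream of Myh4, Myh1, Myh2 and Acta1 are printed because the mix of these myosin genes and the level of sarcomeric actin carry most of what follows. Each is the 250 bases before the RefSeq start (GRCm38.p6), written 5′ to 3′ on the gene's own strand. Capitals mark matches to an E-box (CANNTG, the site of MyoD family factors), the MEF2 motif, the CArG box (bound by serum response factor) and TATAAA. The first 3 motifs are read on both strands and TATAAA on the sense strand. The CArG box was added to the search after gene values had been seen. No marked match overlaps another in these windows. Myh4 lies at chr11:67237562-67237811 (+), Myh1 at chr11:67199852-67200101 (+), Myh2 at chr11:67170777-67171026 (+) and Acta1 at chr8:123894776-123895025 (-).
Myh4: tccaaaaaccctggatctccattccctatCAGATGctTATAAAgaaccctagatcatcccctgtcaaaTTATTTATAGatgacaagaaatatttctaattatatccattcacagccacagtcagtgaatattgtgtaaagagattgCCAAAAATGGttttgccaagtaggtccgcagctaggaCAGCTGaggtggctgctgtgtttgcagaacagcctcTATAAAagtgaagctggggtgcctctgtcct
Myh1: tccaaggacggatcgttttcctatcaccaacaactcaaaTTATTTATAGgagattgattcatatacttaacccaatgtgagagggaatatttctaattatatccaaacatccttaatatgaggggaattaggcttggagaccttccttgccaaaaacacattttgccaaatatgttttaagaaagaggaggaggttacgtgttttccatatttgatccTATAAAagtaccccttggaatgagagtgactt
Myh2: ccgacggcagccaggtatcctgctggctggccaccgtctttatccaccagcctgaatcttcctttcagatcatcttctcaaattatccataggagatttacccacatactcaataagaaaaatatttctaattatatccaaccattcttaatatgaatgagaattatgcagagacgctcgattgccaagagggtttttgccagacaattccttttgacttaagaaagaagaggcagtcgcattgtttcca
Acta1: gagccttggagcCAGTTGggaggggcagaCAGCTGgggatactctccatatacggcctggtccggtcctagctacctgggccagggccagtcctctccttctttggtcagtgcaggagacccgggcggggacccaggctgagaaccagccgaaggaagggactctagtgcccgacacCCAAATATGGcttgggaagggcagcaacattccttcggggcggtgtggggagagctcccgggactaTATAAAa

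Myh4 holds a match to each of the 4 motifs, and Myh2, of the same gene cluster on chromosome 11, holds none. Myh1 holds the MEF2 motif and a TATA match, and Acta1 holds E-boxes, a CArG box and a TATA match. Of the 35 genes, 30 had an entry in the promoter table, and Actn3, Tnni2, Tnnt3, Neb and Myoz1 had none. A MEF2 match stood in 5 of the 30 (Myh1, Myh4, Ttn, Casq2 and Pvalb), against 3.42% of the 27025 genes in the table. A CArG match stood in 4 of the 30 (Acta1, Myh4, Myl3 and Ldb3), against 1.62%. An E-box stood in 26 of the 30, where 69.3% of all genes hold one, and the TATA sequence in 4 of the 30 (Acta1, Myh1, Myh4 and Tnnt1), against 8.94%. A match describes letters in the window and does not show that a factor binds there.

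Libraries held 11274865 to 19881168 counts. The deletion was checked first through Dhrs7b (ENSMUSG00000042569), which averaged 82.4 CPM (counts scaled to a common library total) with an SD of 12.8 over the 5 Control libraries. In the 5 PexRAP-AKO libraries the mean was 19.9 CPM with an SD of 2.26. Its log2 fold change, PexRAP-AKO over Control, was -2.05 (SE 0.12), and the p from edgeR's quasi-likelihood test, adjusted over all genes by Benjamini-Hochberg, was 1.54e-05. The adipocyte genes Adipoq (1868 to 2920 CPM) and Plin1 (1493 to 2281 CPM) were high in all 10 libraries. Of 14913 genes tested, 15 passed an adjusted p of 0.05, which is 0.101%.

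Transcripts of the 35 genes made up a small and very uneven share of the libraries. The 35 genes took 0.115% of the counts in Control 2, 0.0133% in Control 3, 0.104% in Control 5, 0.0208% in Control 7 and 0.283% in Control 8. In PexRAP-AKO they took 0.0329% in replicate 1, 0.0112% in replicate 2, 0.0342% in replicate 3, 0.0225% in replicate 5 and 0.0452% in replicate 6. Thus Control 2, 5 and 8 lay above every PexRAP-AKO library, and Control 3 and 7 lay below the PexRAP-AKO median, so that the groups overlapped. The medians were 0.104% and 0.0329%. Without Control 8 the Control median was 0.0623%. The highest share was 21.4 times the lowest in Control and 4.04 times in PexRAP-AKO. These shares include Myl1 and Des, which varied little between libraries. Of the 1849 counts of PexRAP-AKO 2 in the 35 genes, Myl1 held 645 and Des 402. In Control 3 they held 700 and 531 of 2637, and in Control 8 only 755 and 551 of 34269. The shares of the poorest libraries thus rest in large part on Myl1 and Des, which narrows the ranges given here. The 95% Wilson interval of Control 8 ran from 0.280% to 0.286% and that of PexRAP-AKO 2 from 0.0107% to 0.0117%, and these intervals, like all intervals below, cover counting error only. In bulk tissue, fewer muscle fibres and less muscle RNA per fibre cannot be told apart.

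**Figure D1:**
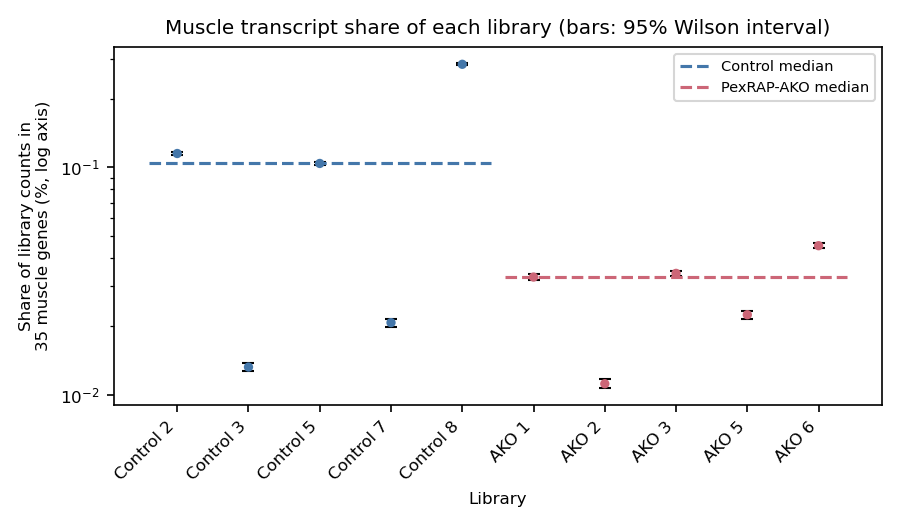
Percent of each library's counts that fell in the 35 muscle genes, on a log axis, for the 5 Control (blue) and 5 PexRAP-AKO (red) libraries. Error bars are 95% Wilson intervals and dashed lines are group medians. Control 2, 5 and 8 lie above all PexRAP-AKO libraries, while Control 3 (0.0133%) lies close to the lowest library, PexRAP-AKO 2 (0.0112%).

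Most of the muscle counts came from 3 libraries. Control 8 held 37.3% of all counts in the 35 genes, Control 5 held 21.3% and Control 2 held 14.5%, together 73.1%. Of the 27 genes that passed the filter on low counts, 21 were highest in Control 8, where 11.2% of all tested genes were highest, and 4 were highest in Control 2. PexRAP-AKO 2 was the lowest library for 16 of the 27 (9.18% of all tested genes) and Control 3 for 6. The SD of the CPM values in Control was larger than that in PexRAP-AKO for 27 of 27. It exceeded the mean for 14 of 27 in Control and for 0 of 27 in PexRAP-AKO. On the CPM scale the SD tends to rise with the mean, and 26 of the 27 had a log2 fold change below 0. The larger Control SDs are therefore not separate from the higher Control levels. No share over all tested genes was formed for these counts. Titin alone, the giant spring of the sarcomere, made up 9.68% of the muscle counts in PexRAP-AKO 2, 12.8% in Control 3 and 31.6% to 39.9% in the 6 libraries with the largest muscle share.

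Markers of other cell types were summed in each library beside the muscle genes. The summed level of 15 myogenic and satellite cell genes ran from 66.5 to 83.0 CPM in Control and from 66.2 to 76.7 CPM in PexRAP-AKO. Its defining regulators were close to 0: Myod1 had 3 counts in all libraries together, Myog 6, Myf5 1 and the acetylcholine receptor subunit Chrnd 1. Of 8 cardiac genes the sum was 2.81 to 4.42 CPM in Control and 1.89 to 3.53 CPM in PexRAP-AKO, and Myl7 of the atrium was at 0 throughout. Smooth muscle and pericyte genes, 10 in number and Des among them, summed to 584 to 760.0 CPM and 431 to 651 CPM. The 13 brown adipocyte genes, Ckmt2 among them, summed to 311 to 2349 CPM and 661 to 3053 CPM, and their lowest library was Control 8, with 28.6 CPM of the uncoupling protein gene Ucp1. The 10 lymph node genes summed to 13.8 to 56.4 CPM in Control and 12.7 to 132 CPM in PexRAP-AKO; Ccl21a was at 0 throughout, and the highest Control library was again Control 8. White adipocyte genes summed to 34040 to 44990 and 33140 to 42460 CPM, Schwann cell genes to 314 to 443 and 322 to 385 CPM, endothelial genes to 815 to 993 and 600 to 825 CPM, and skin and mammary epithelium genes to 8.94 to 20.9 and 8.00 to 56.4 CPM. No gene of these lists passed an adjusted p of 0.05 (edgeR). The part of brown fat or lymph node content in the muscle values was not tested.

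**Figure D2:**
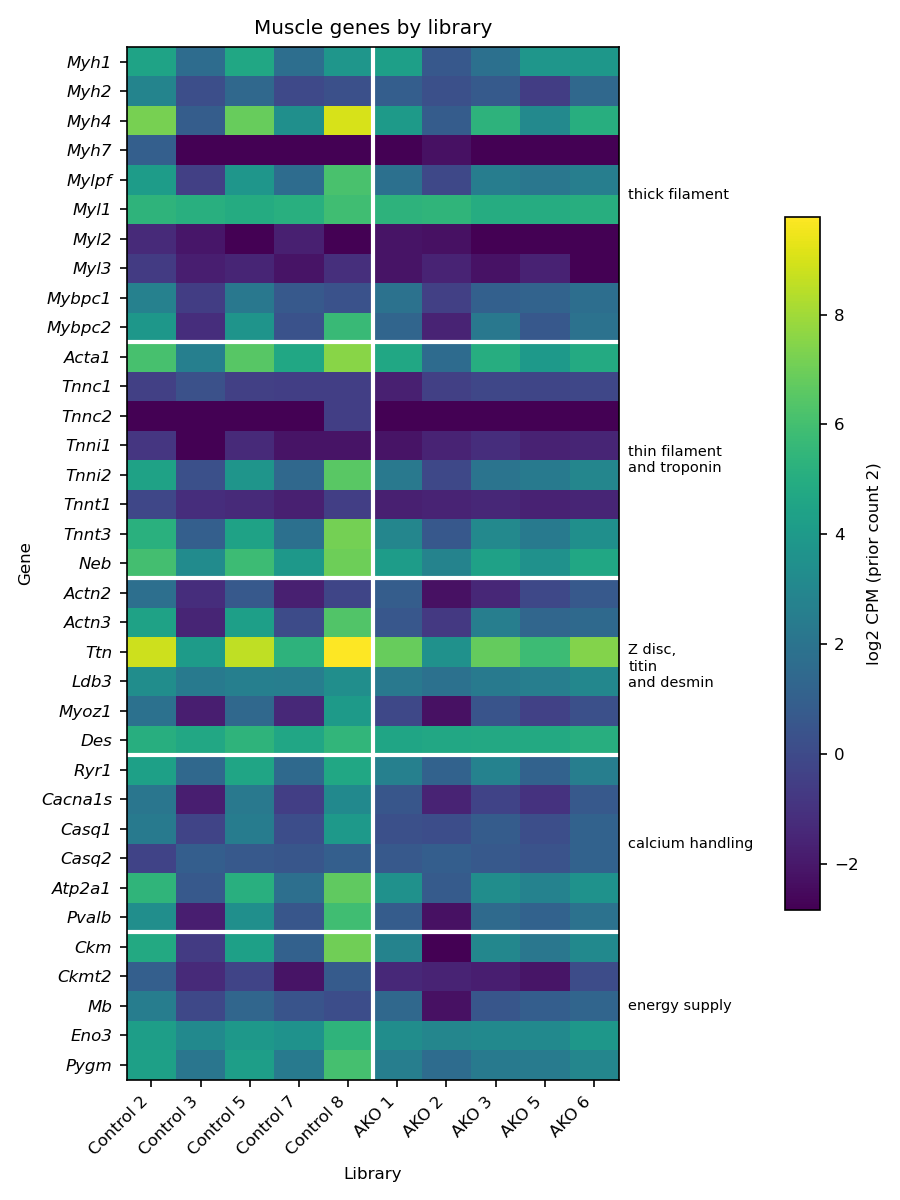
Log2 CPM (prior count 2) of the 35 muscle genes (rows, grouped by role) in the 10 libraries (columns, with the white line between Control and PexRAP-AKO). Most fast-fibre rows brighten together in Control 2, 5 and 8, whereas Myl1, Des and Casq2 vary little, and Myh7, Myl2, Myl3, Tnnc2, Tnni1 and Tnnt1 stay dark in nearly every library.

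Among the thick filament genes, the IIB myosin and the light chain Mylpf followed the muscle share, and the light chain Myl1 did not. Values are given in the order Control 2, 3, 5, 7 and 8, then PexRAP-AKO 1, 2, 3, 5 and 6. Myh4 (ENSMUSG00000057003) stood at 148, 1.71, 116, 10.7 and 514 CPM in Control and at 16.0, 1.63, 39.3, 8.45 and 33.4 CPM in PexRAP-AKO. Control 2, 5 and 8 were above every PexRAP-AKO library, and Control 3 was level with PexRAP-AKO 2. Its log2 fold change was -2.99 (SE 1.28, edgeR adjusted p = 0.310), and it was -1.80 without Control 8. Mylpf, the fast regulatory light chain, stood at 17.3, 0.604, 13.7, 2.93 and 71.5 CPM in Control and 3.40, 0.780, 5.63, 4.40 and 5.79 CPM in PexRAP-AKO, again with overlapping groups. Myl1, the fast essential light chain, stood at 41.2, 35.2, 30.5, 34.5 and 60.7 CPM in Control and 39.7, 41.9, 31.4, 31.4 and 33.1 CPM in PexRAP-AKO. Its highest level was 1.99 times its lowest, where that of Mylpf was 118 times, and PexRAP-AKO 2, the library poorest in muscle counts, had the second highest Myl1 level of all. The log2 fold change of Myl1 was -0.18 (SE 0.18, edgeR adjusted p = 0.666), and it turned to 0.0064 without Control 8.

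The myosin binding proteins C, which brace the thick filament, differed in the same manner. Mybpc2, the fast form, ran from 0.302 to 52.9 CPM in Control and from 0.195 to 4.49 CPM in PexRAP-AKO, highest in Control 8. Mybpc1, the slow form, ran from 0.554 to 6.38 CPM in Control and from 0.585 to 3.64 CPM in PexRAP-AKO, and Control 8 held only 1.12 CPM. The slow light chains Myl2 and Myl3 stayed at or under 0.255 and 0.510 CPM. Both fell short of the filter on low counts.

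On the thin filament, sarcomeric actin, nebulin and the fast troponins were high in the same 3 Control libraries. Acta1 (ENSMUSG00000031972), skeletal muscle actin, stood at 68.7, 5.94, 90.1, 25.9 and 185 CPM in Control and at 25.8, 2.86, 32.0, 15.8 and 29.5 CPM in PexRAP-AKO. Per kilobase of exon it had the highest mean of the 35 genes in Control, 48.9 CPM per kb, although in Control 3 it stood at 3.87 against 17.0 for Myl1. In PexRAP-AKO it averaged 13.8, below Myl1 with 17.1. Neb, the ruler along the thin filament, stood at 64.5, 9.26, 55.2, 14.7 and 128 CPM in Control and 17.6, 6.89, 20.7, 11.4 and 25.1 CPM in PexRAP-AKO. Only Control 2, 5 and 8 left the PexRAP-AKO range upwards in either gene. The log2 fold change of Acta1 was -1.83 (SE 0.85, edgeR adjusted p = 0.342), or -1.17 without Control 8, and that of Neb was -1.73, or -1.13 without Control 8.

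Tnnt3 and Tnni2, the fast troponins T and I, showed the widest spread here. Tnnt3 stood at 35.5, 1.86, 21.1, 3.42 and 143 CPM in Control and 7.61, 1.43, 8.52, 5.03 and 10.9 CPM in PexRAP-AKO. Tnni2 stood at 21.7, 1.06, 13.4, 2.52 and 93.0 CPM in Control and 4.70, 0.780, 3.96, 4.76 and 7.56 CPM in PexRAP-AKO. In both, Control 8 was highest and PexRAP-AKO 2 lowest, and Control 3 and 7 lay inside the PexRAP-AKO range. Their log2 fold changes were -2.60 and -2.59 (edgeR adjusted p = 0.303 and 0.308), and -1.20 and -1.145 without Control 8.

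The slow troponins were nearly absent. Tnnt1 stood at 0.765, 0.302, 0.251, 0.163 and 0.562 CPM in Control and 0.162, 0.195, 0.228, 0.180 and 0.212 CPM in PexRAP-AKO. Tnni1 stood at 0.425, 0, 0.251, 0.0813 and 0.0803 CPM and 0.0810, 0.195, 0.304, 0.180 and 0.212 CPM. Neither reached 10 counts in any library. Tnnc1, the troponin C of slow and cardiac muscle, stood at 0.595, 1.11, 0.603, 0.569 and 0.562 CPM and 0.162, 0.585, 0.761, 0.719 and 0.777 CPM, highest in Control 3, a library poor in Myh4 and the fast troponins. Tnnc2, the fast troponin C, had 7 counts in Control 8 and 0 in the other 9 libraries, though the fast troponins T and I had 1778 and 1158 counts in Control 8. Of the 800 exon bases of Tnnc2, 592 are shared with Ube2c on the opposite strand in the annotation, and Ube2c stood at 1.44 to 3.13 CPM. The sources used here do not say whether the counting used strand, so the Tnnc2 count is uncertain.

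Titin, the fast Z disc gene Actn3 and desmin were all highest in Control 2, 5 and 8, but desmin spanned a far narrower range. Ttn stood at 452, 17.0, 386, 40.4 and 877 CPM in Control and 114, 11.6, 111, 56.2 and 175 CPM in PexRAP-AKO. Actn3, the alpha-actinin of fast fibres, stood at 21.2, 0.201, 19.6, 0.895 and 81.5 CPM in Control and 1.38, 0.455, 5.78, 2.34 and 2.68 CPM in PexRAP-AKO, a 405-fold range within Control. Des, the intermediate filament around the Z disc that smooth muscle shares, stood at 33.9, 26.7, 41.5, 24.9 and 44.3 CPM in Control and 23.8, 26.1, 27.1, 28.3 and 33.4 CPM in PexRAP-AKO. All 3 genes overlapped between the groups through Control 3 and 7, and Des varied by no more than 1.86 times over the 10 libraries. The log2 fold changes were -1.92 for Ttn (SE 1.03, edgeR adjusted p = 0.416; -1.26 without Control 8), -3.28 for Actn3 (SE 1.27, adjusted p = 0.265; -2.05 without Control 8) and -0.30 for Des.

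The remaining Z disc genes differed in range and in their highest library. Myoz1, the calsarcin of fast fibres, ran from 0.151 to 16.5 CPM in Control and from 0.0650 to 1.22 CPM in PexRAP-AKO. Actn2, the alpha-actinin of slower fibres and heart, was highest in Control 2 with 3.32 CPM, whereas Control 8 held 0.723 CPM, less than PexRAP-AKO 1 with 1.70 CPM. Ldb3, a Z disc scaffold, ran from 5.03 to 10.4 CPM in Control and from 3.51 to 7.84 CPM in PexRAP-AKO.

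Calcium handling genes were read next. Atp2a1, the calcium pump SERCA1 of fast fibres, stood at 43.1, 1.46, 34.5, 3.33 and 103 CPM in Control and 11.7, 1.56, 9.97, 6.56 and 11.9 CPM in PexRAP-AKO. Ryr1, the calcium release channel, stood at 19.8, 2.57, 23.8, 2.68 and 25.2 CPM in Control and 6.23, 2.08, 6.70, 2.07 and 5.72 CPM in PexRAP-AKO. Pvalb, the calcium buffer of fast fibres, stood at 10.3, 0.151, 10.6, 1.30 and 60.5 CPM in Control and 1.62, 0.0650, 2.74, 2.07 and 3.60 CPM in PexRAP-AKO. Control 2, 5 and 8 exceeded all PexRAP-AKO libraries in each, and Control 3 was below all PexRAP-AKO libraries for Atp2a1. Ryr1 differed from the other two in that Control 2, 5 and 8 were close to one another (19.8 to 25.2 CPM), although Control 8 held more of the fast genes. The log2 fold change was -2.14 for Atp2a1, -1.69 for Ryr1 and -3.03 for Pvalb (SE 1.26, edgeR adjusted p = 0.298). Without Control 8 it was -1.30 for Atp2a1 and -1.48 for Pvalb. In the annotation, Atp2a1 shares 763 of its 3477 exon bases with Rabep2.

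Calsequestrin binds calcium within the store, in a fast form, Casq1, and a slow and cardiac form, Casq2. Casq1 stood at 4.85, 0.705, 5.32, 0.976 and 15.1 CPM in Control and 1.05, 0.975, 1.67, 0.989 and 2.05 CPM in PexRAP-AKO. Casq2 stood at 0.680, 1.76, 1.46, 1.30 and 1.85 CPM in Control and 1.46, 1.76, 1.45, 1.17 and 2.05 CPM in PexRAP-AKO. Casq1 was highest in Control 8, while Casq2 was lowest in Control 2, a library rich in muscle counts. Casq2 was the only tested gene of the 27 with a log2 fold change above 0 (0.15, SE 0.26, edgeR adjusted p = 0.826), which became -0.010 without Control 2. Cacna1s, the voltage sensor of the muscle membrane, ran from 0.151 to 8.76 CPM in Control and from 0.195 to 1.48 CPM in PexRAP-AKO.

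Genes of quick energy supply were graded. Ckm, the muscle creatine kinase, stood at 28.1, 0.503, 20.1, 1.95 and 131 CPM in Control and 6.80, 0, 7.84, 4.40 and 8.90 CPM in PexRAP-AKO. PexRAP-AKO 2 held 0 counts of Ckm, which allows up to 3. Pygm, muscle glycogen phosphorylase, stood at 20.3, 4.18, 18.5, 4.80 and 67.0 CPM and 5.67, 2.99, 5.02, 5.21 and 7.56 CPM. Eno3, the muscle enolase, stood at 18.6, 8.66, 14.6, 11.8 and 41.5 CPM and 10.04, 7.61, 8.60, 8.81 and 14.1 CPM. Control 8 was highest and PexRAP-AKO 2 lowest for all 3, yet the highest Control library of Eno3 was 4.79 times the lowest, against 16.0 times for Pygm and 260.4 times for Ckm. The log2 fold changes were -2.70 for Ckm (SE 1.27, edgeR adjusted p = 0.351; -1.18 without Control 8), -2.11 for Pygm (SE 0.74, adjusted p = 0.229; -1.18 without Control 8) and -0.94 for Eno3 (-0.45 without Control 8).

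Myoglobin and mitochondrial creatine kinase belong to oxidative energy supply. Mb, the oxygen store of oxidative fibres, ran from 0.806 to 5.61 CPM in Control and from 0.0650 to 2.51 CPM in PexRAP-AKO. Its level in Control 8 was 0.964 CPM, below 4 of the 5 PexRAP-AKO libraries. Ckmt2, which brown adipocytes also express, ran from 0.0813 to 1.87 CPM in Control and from 0.0899 to 0.918 CPM in PexRAP-AKO and was too low to be tested.

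Taking the 4 adult myosin heavy chain genes as shares of their sum within a library cancels the amount of muscle RNA. On counts per kilobase of exon, Myh4 made up 83.9% of the 4 genes in Control 2, 31.9% in Control 3, 81.3% in Control 5, 74.4% in Control 7 and 97.4% in Control 8. In PexRAP-AKO it made up 44.3% in replicate 1, 41.7% in replicate 2, 89.8% in replicate 3, 38.2% in replicate 5 and 68.5% in replicate 6. Both groups thus held libraries dominated by the IIB gene and libraries in which it was a minority. The Myh1 (IIX) share was 11.95%, 52.4%, 17.1%, 20.8% and 2.48% in Control and 51.5%, 34.7%, 7.24%, 59.7% and 27.1% in PexRAP-AKO. It led over Myh4 in Control 3, PexRAP-AKO 1 and PexRAP-AKO 5. The Myh2 (IIA) share was 3.37%, 15.8%, 1.52%, 4.75% and 0.167% in Control and 4.15%, 22.5%, 2.93%, 2.06% and 4.39% in PexRAP-AKO. It was highest in the poorest library of each group. The 4 genes held 64 to 6586 counts together, and PexRAP-AKO 2 and Control 3 had the fewest (64 and 113), so that the 95% Wilson interval of the Myh1 share ran from 24.2% to 47.0% in PexRAP-AKO 2 and from 2.14% to 2.87% in Control 8.

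**Figure D3:**
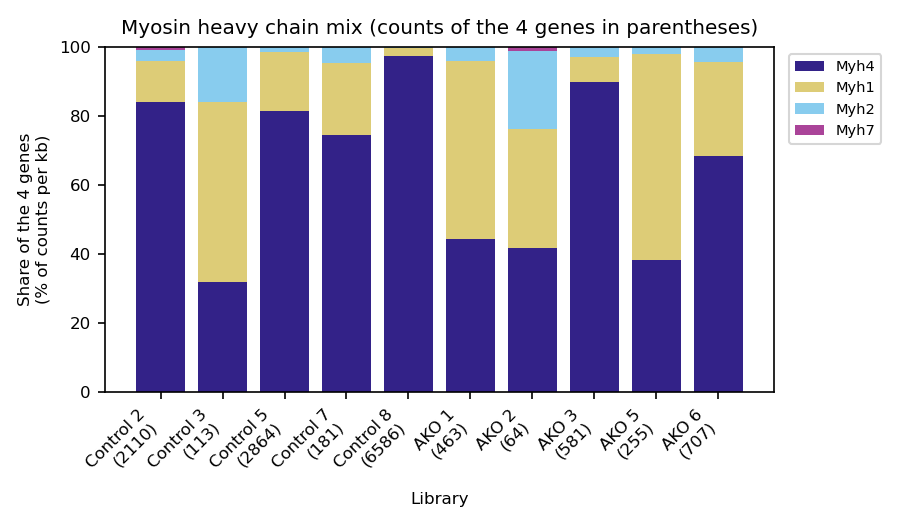
Share of each myosin heavy chain gene in the sum of the 4 adult genes, in percent of counts per kilobase of exon, for each library. Counts of the 4 genes are in parentheses. The Myh4 bar ranges from 31.9% (Control 3) to 97.4% (Control 8) in Control and from 38.2% to 89.8% in PexRAP-AKO.

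Myh7, the slow myosin, had 22 counts in Control 2, 1 in PexRAP-AKO 2 and 0 in the other 8 libraries. In Control 8, which held 6586 counts of the 4 genes, 0 counts bounded its share at 0.0408% by the upper Wilson limit, and in Control 2 its share was 0.740% (0.489% to 1.12%). Control 2 was also the library with most Mb, Actn2, Mybpc1 and Myh2. The levels behind the shares were, for Myh1, 22.3, 2.97, 25.7, 3.17 and 13.8 CPM in Control and 19.7, 1.43, 3.35, 13.9 and 14.0 CPM in PexRAP-AKO. For Myh2 they were 7.06, 1.01, 2.56, 0.813 and 1.04 CPM in Control and 1.78, 1.04, 1.52, 0.539 and 2.54 CPM in PexRAP-AKO. Control 8 held less Myh1 than PexRAP-AKO 1 and was level with PexRAP-AKO 5 and 6. Its Myh2 level, on 13 counts, was below those of PexRAP-AKO 1, 3 and 6. Yet its Myh4 level of 514 CPM was the highest of all.

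No isoform share passed a test of the difference between genotypes. Of 8 shares, 6 could be tested by exact two-sided permutation, with adjustment over the 6. The Myh4 share averaged 73.8% ± 24.9 (SD, n = 5) among Control libraries against 56.5% ± 22.1 (SD, n = 5) among PexRAP-AKO libraries, a difference of -17.3 percentage points (exact p = 0.286, adjusted p = 0.429). The Myh1 share averaged 20.95% ± 18.9 and 36.1% ± 20.7, a difference of 15.1 points (exact p = 0.246, adjusted p = 0.429), and the Myh2 share differed by 2.08 points (exact p = 0.571, adjusted p = 0.686). The smallest p that 5 against 5 libraries allow is 0.00794. The Myh7 share was 0 in 4 of 5 libraries of each group (exact p = 1). Myosin genes share sequence: 30.5% of the 50-base windows of Myh1 transcripts occur in another gene, with 18.7% of all its windows found in Myh2, and 18.9% of the windows of Myh4 do so. The sources used here do not say how reads with several matches were treated, so the split between these genes is uncertain.

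In the troponin I and T pairs, the fast members Tnni2 and Tnnt3 share no such window with another gene. Libraries entered with at least 50 counts in the pair, and in these both pairs were almost wholly of the fast kind. The slow Tnni1 made up 0.809%, 0.776% and 0.0359% of Tnni1 plus Tnni2 in Control 2, 5 and 8, and 0.712%, 3.10%, 1.55% and 1.15% in PexRAP-AKO 1, 3, 5 and 6. The slow Tnnt1 made up 1.52%, 0.848% and 0.282% of Tnnt1 plus Tnnt3 in those Control libraries, and 1.51%, 1.89%, 2.50% and 1.38% in those PexRAP-AKO libraries. The slow gene thus held at most 3.10% of a pair in these libraries, and Control 8 had the least of it in both. The libraries that did not enter were poor in the fast genes. There Tnnt1 stood at 10.4% in Control 3, 3.31% in Control 7 and 8.92% in PexRAP-AKO 2, on 25 to 44 counts of the pair. Tnni1 stood at 0%, 1.32% and 9.42% in the same libraries, on 15 to 32 counts. The exact p was 0.200 for Tnni1 and 0.143 for Tnnt1 (adjusted p = 0.429 for both), where 3 against 4 libraries allow no less than 0.0286. The troponin C pair had at most 22 counts in a library and went the other way, with all its counts in slow Tnnc1 in 9 libraries and Tnnc1 at 43.5% in Control 8. Its fast member Tnnc2 is the gene that shares exon bases with Ube2c. The calsequestrin pair reached 50 counts in Control 2, 5 and 8 and PexRAP-AKO 6, with Casq2 at 9.10%, 16.3%, 8.02% and 41.6%, too few libraries for a test.

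Ratios to Acta1 within a library showed which genes kept step with sarcomeric actin. The SD of the log2 ratio, over libraries with at least 10 counts of both, had a median of 0.96 over the 28 genes for which it could be formed. It was smallest for Cacna1s (0.14, 5 libraries), Ttn (0.58, 10 libraries), Myoz1 (0.61, 6 libraries) and Mylpf (0.63, 10 libraries). It was largest for Tnnc1 (1.98, 4 libraries), Casq2 (1.84), Myh2 (1.72), Myl1 (1.72) and Des (1.56). The minimum of 10 counts kept Cacna1s and Myoz1 only in the libraries where their levels were highest. Their small SDs therefore cannot be set against those over 10 libraries. For Des the log2 ratio lay at -2.06 in Control 8 and at 3.19 in PexRAP-AKO 2, and for Myl1 at -1.61 and 3.87. Titin counts stayed between 0.64 and 2.72 above those of Acta1 on the log2 scale. Casq2, Myl1 and Des, together with Ldb3, were also the 4 of 27 tested genes whose highest Control level was under 3 times the lowest, where 18 of 27 spanned at least 10 times.

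Single libraries of 1 genotype were also set side by side. For this, 2 pairs were chosen after their values had been seen: PexRAP-AKO 1 and 3, whose muscle shares were close, and Control 5 and 8, the libraries with most muscle counts. Ratios of CPM carry exact intervals on the counts. These do not test a difference between samples, since every pair of libraries within a group differed beyond counting noise over all genes. In PexRAP-AKO 1 over 3, Myh1 was 5.88 times higher (4.25 to 8.30), Actn2 7.45 times (2.22 to 39.0, on 21 and 3 counts), Mb 1.94 times and Mybpc1 1.92 times, while Actn3 was at 0.238 times (0.132 to 0.407), Myh4 at 0.407 times (0.344 to 0.481) and Mybpc2 at 0.505 times. The interval held 1 for 17 genes, among them Ttn (1.03, 0.957 to 1.11), Tnnt3 and Ckm. In Control 5 over 8, 20 genes were lower, with Tnni2 at 0.144 times and Ckm at 0.153 times, yet Myh1 was 1.86 times, Mb 2.50 times, Myh2 2.45 times and Mybpc1 4.06 times higher. Mb, Mybpc1 and Myh1 were higher in the first library of both pairs, Acta1, Actn3, Mybpc2, Myh4 and Mylpf were lower in both, and Myl1 went opposite ways.

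**Figure D4:**
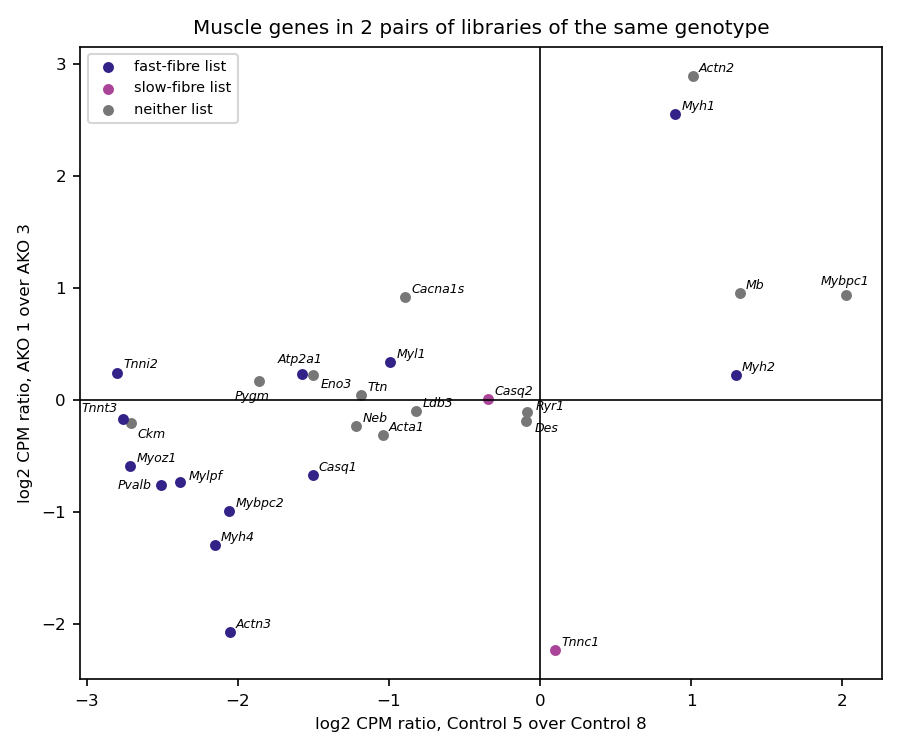
Log2 CPM ratio of each muscle gene in Control 5 over Control 8 (x axis) against PexRAP-AKO 1 over PexRAP-AKO 3 (y axis), coloured by fibre list. Myh1, Mb and Mybpc1 stand at the upper right, and Actn3, Myh4 and Mybpc2 at the lower left, while Ttn lies near 0 on the y axis.

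Across the genotypes, 0 of the 27 tested genes passed an adjusted p of 0.05 with edgeR, where 0.101% of all tested genes did (0.00671% as lower in PexRAP-AKO), and the same count of 0 came from DESeq2 (1.5% of all genes fitted, and 3.77% of those given an adjusted p), from limma voom without (0.127%) and with sample weights (0.717%), and at an adjusted p of 0.1 in edgeR (0.657%). DESeq2 gave no adjusted p for 16 of the 34 muscle genes it fitted. At an unadjusted p under 0.05, 14 of the 27 were lower in PexRAP-AKO with edgeR. This compares with 6.44% of all genes in that direction. In either direction, limma voom gave 0 of 27, against 2245 of all 14913 genes. DESeq2 gave 17 of the 34 it fitted, against 2409 of 27706. A log2 fold change below 0 was found for 26 of 27, against 50.2% of all genes. The median log2 fold change was -1.92, and that of all tested genes was -0.00065. It was -1.13 without Control 8, and the edgeR count at an unadjusted p under 0.05 was then 1, against 1760 of all 15104 genes. That count of muscle genes was also 1 without PexRAP-AKO 2 or PexRAP-AKO 5, and 4 without Control 2 or Control 5. It was 3 without PexRAP-AKO 1 or PexRAP-AKO 3, 7 without PexRAP-AKO 6, and 20 without Control 3 or Control 7. Over all genes the count ran from 1735 of 15148 without Control 7 to 2689 of 15169 without PexRAP-AKO 1. Without Control 3 it was 2336 of 14962. The groups overlapped in 27 of 27 genes, while they did not in 3.41% of all tested genes. Apart from those of DESeq2, these counts cover genes that passed the filter on low counts. All of them describe the genes without testing them as a set.

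**Figure D5:**
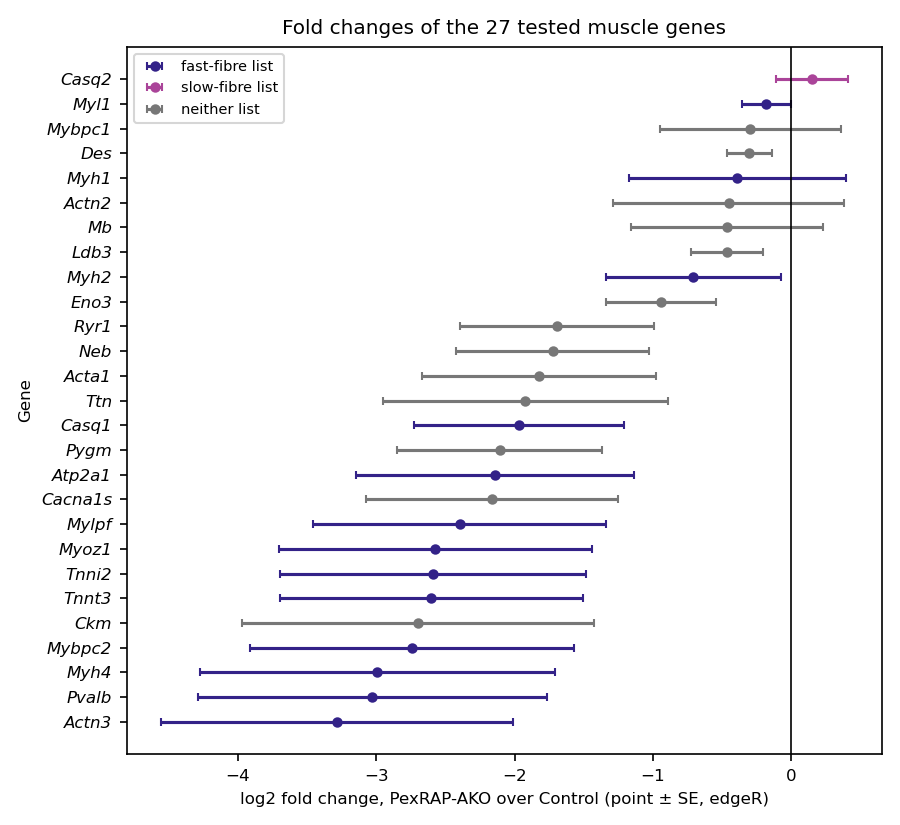
Log2 fold change, PexRAP-AKO over Control, of the 27 tested muscle genes (points, with SE as bars, edgeR), coloured by fibre list. Fast-fibre genes run from -3.28 (Actn3) to -0.18 (Myl1), bars are wide for the genes with the largest changes, and Casq2 is the only gene above 0.

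By role, the median log2 fold change was -0.71 over 7 tested thick filament genes (3 at an unadjusted p under 0.05), -2.21 over 4 thin filament genes (3), -1.19 over 6 Z disc genes (2), -2.06 over 6 calcium handling genes (4) and -1.52 over 4 energy genes (2). It was -2.57 over the 13 tested genes of the fast-fibre list, all of them negative. The 8 genes too low to test were Ckmt2, Myh7, Myl2, Myl3, Tnnc1, Tnnc2, Tnni1 and Tnnt1, and 6 of the 7 genes of the slow-fibre list are among them, so the lists could not be set against each other. Apart from Casq2, the genes with log2 fold changes nearest to 0 were Myl1 (-0.18), Mybpc1 (-0.30), Des (-0.30), Myh1 (-0.39), Actn2 (-0.45), Mb (-0.46), Ldb3 (-0.47) and Myh2 (-0.71). Of these, Actn2, Mb, Mybpc1 and Myh2 turned above 0 without Control 2 (0.29, 0.19, 0.21 and 0.099), and Myh1 turned to 0.0033 without Control 5.

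Further muscle genes outside the 35 were listed by role: 25 of the sarcomere, 16 of excitation and calcium and 12 of muscle metabolism. Of the 34 tested, 0 passed with edgeR. An unadjusted p under 0.05 was found for 7 of 34, where 15.5% of all tested genes had one. This count was 23 of 38 without Control 3, 19 of 38 without Control 7 and 5 to 7 without any other library. Over all genes it was 2336 of 14962 without Control 3 and 1735 of 15148 without Control 7. Without any other library it was 1760 to 2689. A log2 fold change below 0 was found for 24 of 34, with a median of -0.36, which was -0.63 without Control 3, -0.60 without Control 7 and -0.58 without PexRAP-AKO 1. DESeq2 called 1 of the 53 it fitted, against 1.5% of all genes. This was Cmya5 of the costamere (log2 fold change -0.82, adjusted p = 0.0476), picked out after its value was seen. The 14 tested sarcomere genes were all negative, with a median of -1.36, and their summed level was 60.2 to 182.8 CPM in Control and 52.5 to 77.9 CPM in PexRAP-AKO. The medians of the excitation and metabolism lists were -0.11 and 0.0028 (10 genes tested in each). The most abundant listed genes have roles outside muscle too: Ldha, the lactate dehydrogenase, ran from 428 to 586 CPM in Control and 537 to 682 CPM in PexRAP-AKO, and Slc2a4, the insulin-regulated glucose carrier, from 248 to 364 and from 308 to 402 CPM. Asph, Atp2a2, Gys1 and Pfkm averaged 274, 227, 166 and 46.0 CPM, with log2 fold changes of -0.295, 0.047, 0.036 and -0.031.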

How the data were processed

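RNA-seq libraries of 5 Control and 5 PexRAP-AKO samples were analysed. The authors deposited raw read counts per gene. Per the submitters' processing notes, STAR 2.0.4b, Subread, featureCounts and edgeR were used; the sources used here give no build, annotation, strand or treatment of reads with several matches. Among 40724 rows for 40501 identifiers, 117 identifiers were repeated with the same counts and were used once. GENCODE M21 (GRCm38) held 99.4% of them and gave exon lengths. The muscle genes and all lists were chosen with earlier results of these data known.

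Counts were scaled by TMM and tested with edgeR 4.0.16 (R 4.3.3; quasi-likelihood F test, robust, filterByExpr with minimum count 10 and minimum total 15, no covariate), adjusted by Benjamini-Hochberg over 14913 genes. SE was taken as the size of the log2 fold change over the root of F. Isoform shares used counts per kilobase of exon and exact permutation tests. Intervals are Wilson (shares) or exact (ratios), at 95%. Alternatives were other scalings and filters, DESeq2 1.42.0, limma 3.58.1 voom, a replicate block and leaving out each library. The edgeR step was tested on simulated data. No 2 libraries of a group agreed within sampling noise (lowest chi-square per degree of freedom 7.61 over 20 pairs). Values in every sample are given for up to 3 genes of highest mean CPM per role, the myosin heavy chains, the slow and fast pairs and the 5 genes with the largest SD of the log2 ratio to Acta1.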

Additional observations from a re-analysis of the deposited data

Results flagged for a closer look

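Of 66 groups of 4 or 5 libraries, 7 held a library whose gap to its neighbour was large for the range of its group. For independent and normally spread values 1 in 20, or 3.3, would be flagged, but the muscle genes of a library are not independent. PexRAP-AKO 2, the library with the smallest muscle share, was far below the other PexRAP-AKO libraries in log2 CPM of Ckm (-2.83), Mb (-2.28), Pvalb (-2.28) and Mylpf (-0.12). In the same library the Myh2 share of the myosin genes was far above the rest, at 22.5%. The Myh7 share stood apart at 1.16% in PexRAP-AKO 2, on 1 count, and at 0.740% in Control 2, on 22 counts, because the other 4 libraries of each group had 0 counts.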

How the results depend on the processing

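The count of 0 called muscle genes held in 21 of 21 alternatives, and their median log2 fold change ran from -2.23 to -1.09, with -1.21 in limma voom. Leaving out 1 library gave medians of -2.23 to -1.13. Of 692 gene fold changes under alternatives, 679 kept their direction and their side of the threshold, 13 reversed and 0 gained a call. Dhrs7b kept its call in 21 of 21 (-2.14 to -1.99). The count over all genes, 15, became 26 with no low-count filter, 415 with DESeq2, 107 in voom with sample weights, 98 at an adjusted p under 0.1 and 3 to 58 when 1 library was left out. DESeq2 called 1 of the further muscle genes. Reversed without Control 2 were Actn2 (0.29), Mb (0.19), Myh2 (0.099), Mybpc1 (0.21) and Casq2 (-0.010), without Control 5 Myh1 (0.0033), and without Control 8 Myl1 (0.0064) and Pfkm (0.060). Mybpc1 was at 0.018 in voom and 0.035 with sample weights, and with total counts alone Atp2a2 was at -0.024 and Gys1 at -0.034. The Myh2 share difference ran from -1.74 (without PexRAP-AKO 2) to 4.75 and that of Myh7 from -0.148 (without PexRAP-AKO 2) to 0.233 over the libraries left out. With at least 200 counts the Myh7 difference was -0.247 points, and with at least 20 counts that of Tnnt1 was -0.0396. Over the libraries left out, the lowest fold changes of the reversed genes were -0.85 for Actn2, -0.69 for Mb, -0.75 for Myh1, -0.99 for Myh2, -0.27 for Myl1, -0.58 for Mybpc1 and -0.082 for Pfkm, and the highest of Casq2 was 0.25. The cause of these reversals was not tested.

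With the replicate number as a block, which uses the 6 libraries with numbers 2, 3 and 5, 0 muscle genes and 3 of all genes were called, the muscle median was -1.50 and Pfkm reversed to 0.024. The correlations of deviations within numbers 2, 3 and 5 were -0.021, -0.0812 and 0.360. Not every sample correlated best with its own number, and so few pairs cannot show whether equal numbers link samples. Depth limits the slow-fibre genes: with 64 to 6586 myosin counts per library, small shares of slow myosin were not detectable in the poorest libraries.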

Other observations

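The log2 CPM of tested genes of at least 1 mean CPM was compared with the median of tested muscle genes over the 10 libraries. Genes on the muscle and marker lists above were left out of the comparison. Of the genes compared, Klhl31 (Pearson r = 0.978), a gene of striated muscle, was most like that median. It was followed by Smarce1 (0.927), Ppp1r3a (0.920), Tmem38a (0.911) and Pdlim3 (0.908). The libraries share genotype groups and total RNA of 1 tissue, so these values are a description and carry no p. Ppp1r3a encodes the muscle glycogen-targeting subunit of protein phosphatase and averaged 1.80 CPM, and Tmem38a encodes a cation channel of the sarcoplasmic reticulum and averaged 6.31 CPM. The log2 fold changes, PexRAP-AKO over Control, were -2.26 for Klhl31, -1.67 for Ppp1r3a, -0.33 for Tmem38a, -0.47 for Pdlim3 and -0.053 for Smarce1, and none passed an adjusted p of 0.05 (edgeR adjusted p = 0.304 to 0.800).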
